A study of Mus musculus with 24 samples.

Results

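The genes described here encode the machinery that brings proteins into mitochondria, cuts off their targeting signals, folds them and degrades them. They were chosen by name: each protein-coding gene whose symbol starts with Tomm or Timm and a number, plus Hspd1, Hspe1, Hspa9, Trap1, Lonp1, Clpp, Clpx, Afg3l2, Yme1l1, Phb, Phb2, Pmpca, Pmpcb and Grpel1. This rule gave 39 of the 55487 genes in the deposited tables, and all 39 were listed there. The rule uses no measured value, but it was written with earlier results of these data known.

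Most mitochondrial proteins are made in the cytosol as precursors. The TOM complex admits them through the outer membrane, small TIM proteins escort hydrophobic precursors across the space between the membranes, and the TIM22 and TIM23 complexes insert them into the inner membrane or pass them to the matrix with the help of a chaperone motor. In the matrix a peptidase removes the targeting signal, chaperonins fold the product, and proteases of the matrix and inner membrane degrade proteins that fail. Skeletal muscle fibres depend on this supply for their respiratory chain, and muscle lowers its mitochondrial content when it is not used.

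Gastrocnemius, a calf muscle, was taken from 24 male C57BL/6J mice, with 1 library per mouse and 8 mice per group. One group wore casts on both hindlimbs for 8 days and received MOTS-c, a peptide encoded within the mitochondrial ribosomal RNA, at 15 mg/kg/day. The second group was casted for 8 days and received sterilized water, and the third was not casted and received sterilized water; all 3 groups were injected intraperitoneally 2 times a day for 8 days. The sample labels give the age as 12 weeks, and the design text gives 10 weeks at assignment. No uncasted group received MOTS-c, so its action without casting was not measured. The design asks how the transcriptome differs with casting and with MOTS-c during casting.

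The deposited values are TPM (transcript abundance as a length-corrected share of each library, with a fixed total over all genes), so sequencing depth is unknown and no counting interval can be given. Unless stated otherwise, levels below are scaled TPM, in which libraries were aligned on the middle of the distribution of all tested genes, and changes are differences of log2(scaled TPM + 1) with their standard error (SE). Tests used limma with Benjamini-Hochberg adjustment over 14690 genes and a threshold of 0.05. The 6 skeletal muscle markers (Ckm, Acta1, Myh4, Mylpf, Tnnt3 and Actn3) were detected in every group. The libraries detected 19832 to 21755 genes, and the labels name no batch. On the first principal component of the tested genes, replicate 5 of the casted group with MOTS-c lay at -17.8, between the other casted libraries with MOTS-c (13.7 to 29.6) and the uncasted libraries (-40.9 to -39.7). Casted replicates 5 to 8 lay at 29.5 to 36.5 on this component, against 6.39 to 25.8 for casted replicates 1 to 4.

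Of the 39 genes, 37 reached 0.5 TPM in at least 8 libraries and were tested. Tomm20l, a paralog of the receptor gene Tomm20, was listed at 0 in all 24 libraries. Timm8a2, a paralog of the small TIM gene Timm8a1, was above 0 in 2 libraries and reached at most 0.08 TPM in the deposited values. Among the 37, Timm23 had the highest mean over the deposited tables (276.97 TPM) and Timm8a1 the lowest (8.27 TPM).

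A pair of promoters is shown because their genes belong to partner pairs whose ratio shifted with casting without overlap: Hspe1 beside Hspd1, and Phb2 beside Phb. The other such pair was Tomm40l and Tomm40, and Tomm40l has no entry in the promoter table. Each line gives the 250 bases before the annotated start (RefSeq, GRCm38.p6), read 5′ to 3′ along the gene. In Hspe1 (chr1:55087898-55088147, plus strand) capitals mark matches to the heat shock element TTCNNGAANNTTC; in Phb2 (chr6:124712039-124712288, plus strand) they mark matches to the ETS letters CCGGAAG.
Hspe1: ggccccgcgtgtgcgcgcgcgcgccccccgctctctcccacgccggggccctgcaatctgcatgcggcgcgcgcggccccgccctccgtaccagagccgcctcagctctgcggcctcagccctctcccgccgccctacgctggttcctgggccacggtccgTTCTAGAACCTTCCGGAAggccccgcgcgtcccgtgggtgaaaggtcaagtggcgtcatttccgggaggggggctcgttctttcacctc
Phb2: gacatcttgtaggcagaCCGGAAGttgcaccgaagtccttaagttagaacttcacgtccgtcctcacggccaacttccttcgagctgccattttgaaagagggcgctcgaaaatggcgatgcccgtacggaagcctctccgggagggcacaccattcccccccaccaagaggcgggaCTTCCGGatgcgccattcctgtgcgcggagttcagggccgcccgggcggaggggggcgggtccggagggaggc

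Hspe1 and Hspd1, which encode the co-chaperonin and the chaperonin of the matrix, lie head to head on chromosome 1, and their annotated genes overlap by 112 bases on opposite strands. The capital run in Hspe1 holds 2 overlapping matches to the heat shock element, which begin 89 bases before the start on the gene's strand and 84 bases before it on the other strand; letters of the ETS motif overlap this run. Strandedness is not stated, so reads from genes that overlap on opposite strands cannot be told apart; Tomm40l likewise overlaps Nr1i3 (4691 bases, mean 0.022 TPM) and Grpel1 overlaps Tada2b (411 bases, mean 11.5 TPM). Hspd1 has 2 windows in the RefSeq table, and the 1 that shares 285 bases with the Hspe1 window holds the same element. Promoter windows of 300 bases (250 before and 50 after the start) were present for 34 of the 39 genes, and both strands were searched. The heat shock element was found in 3 of the 34 (Hspd1, Hspe1 and Timm9), against 0.662% of all 27025 genes with a window and 0.646% of the tested ones. The ETS letters were found in 17 of the 34, against 9.93% of all genes and 19.6% of the tested ones. The ERR letters AAGGTCA were found in 6 (17.6%), against 5.38% and 4.01%. The NRF1 letters GCGCANGCGC were found in 4 (11.8%), against 5.19% and 11.3%, and the YY1 letters AAGATGGC in 1, Timm50 (2.94%), against 3.19% and 5.24%. These matches describe letters in a window and show no binding.

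Casting did not move the import and proteostasis genes one way. Against uncasted muscle, casted muscle had higher levels of 7 of the 37 tested genes and lower levels of 13, while 17 did not pass. The rises were Grpel1, Timm10b, Phb2, Tomm40, Clpp, Trap1 and Tomm70a; the falls were Tomm40l, Timm22, Phb, Timm29, Tomm7, Hspd1, Pmpcb, Timm44, Timm21, Timm13, Timm8a1, Timm50 and Pmpca. Across all genes tested 28.7% were higher and 27.7% lower, so 18.9% of the import and proteostasis genes rose and 35.1% fell beside that background. The ranges of casted and uncasted libraries did not overlap for 2 genes above (Grpel1 and Timm10b) and 5 below (Tomm40l, Timm22, Phb, Timm29 and Pmpca), against 11.5% and 10.9% of all genes. Their median change was 0.03, with a range of -1.26 to 0.55, and the median of all genes was 0.01.

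**Figure D1:**
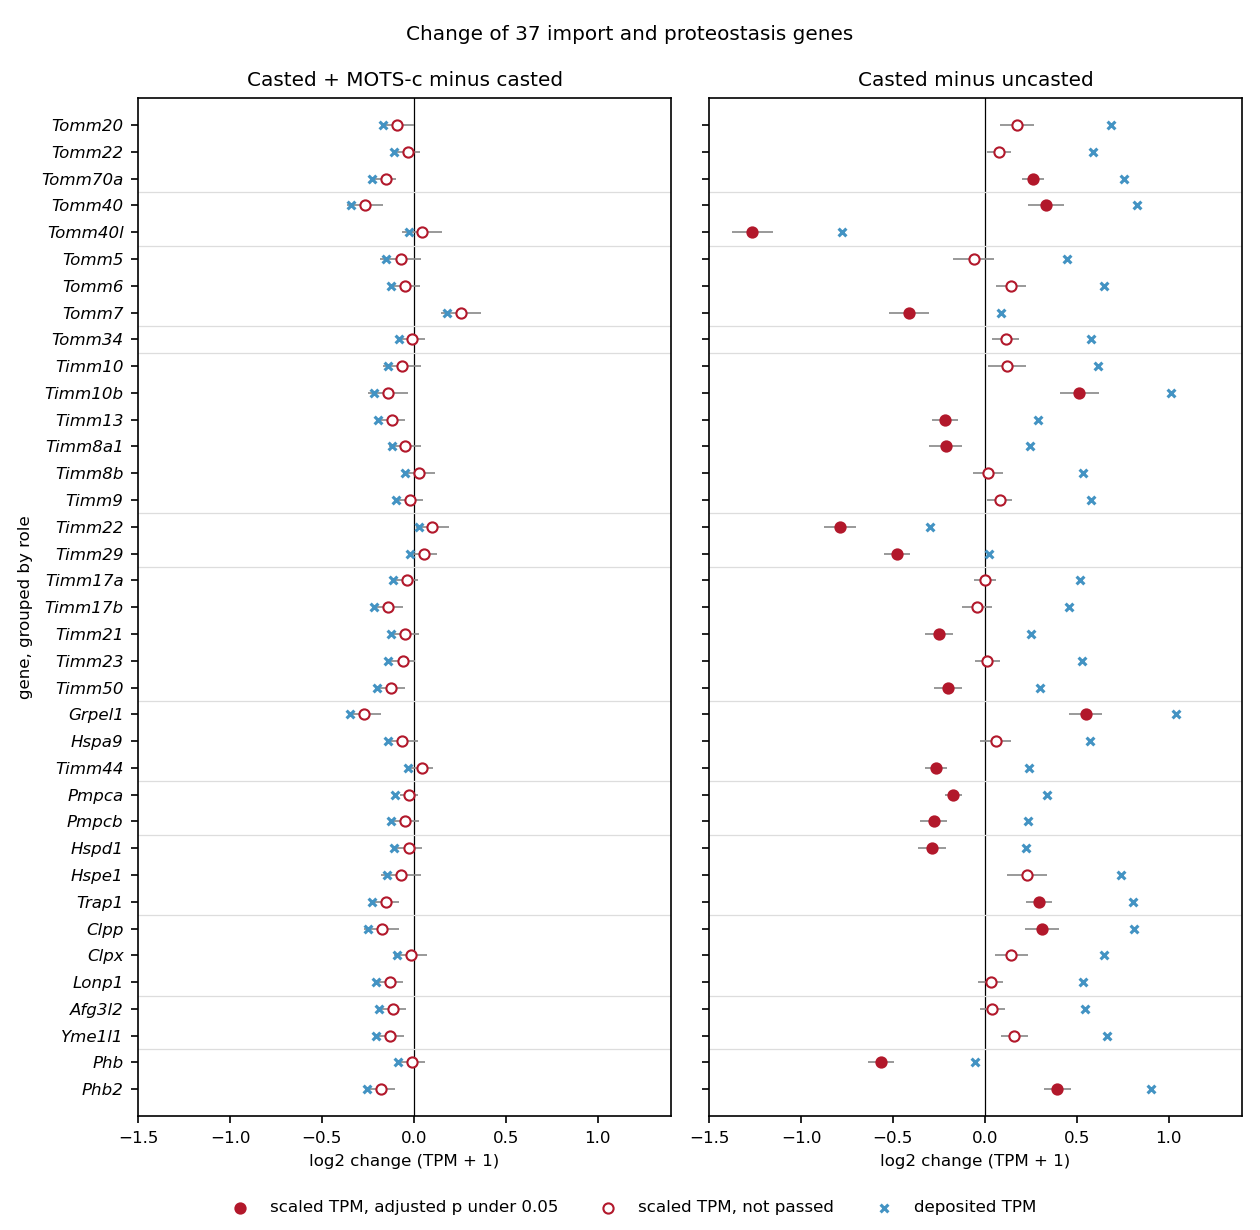
Log2 change of TPM + 1 for the 37 tested genes, grouped by role from outer membrane receptors (top) to prohibitins (bottom), for casted with MOTS-c minus casted (left) and casted minus uncasted (right). Circles are scaled TPM with bars of 1 SE (filled where the adjusted p is under 0.05) and crosses are the deposited TPM; no circle is filled on the left, and on the right 7 are filled above 0 and 13 below.

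These calls depend on the scale for most falls and for the genes that did not pass. All 17 genes that did not pass were higher on the deposited TPM. On TPM scaled to the total of nuclear protein-coding genes (the nuclear scale) all of them but Tomm5 were higher. The other scales given here place casted muscle higher than the scaled TPM does, so a rise could not turn on them. On the deposited TPM the median of all tested genes was 0.39 higher in casted than in uncasted muscle, and 32 of the 37 genes were higher and 2 lower, against 62.2% and 7.43% of all genes. The 7 rises were higher on the scaled TPM, on the deposited TPM and on TPM scaled to the total of nuclear protein-coding genes, and Tomm40l and Timm22 were lower on all 3 scales. On the nuclear scale the median of all tested genes was 0.23 higher in casted muscle. There 24 of the 37 genes were higher and 4 lower, against 49.4% and 13.0% of all genes. Of the 13 falls, 10 had values above 0 on the deposited TPM and 8 on the nuclear scale. On the deposited TPM 8 of the 13 passed the threshold as higher. They were Timm44, Timm50, Timm13, Timm21, Hspd1, Pmpca, Pmpcb and Timm8a1. Of the falls, only Pmpca passed as higher on the nuclear scale. Its casted libraries, wholly below the uncasted ones on the scaled TPM, lay wholly above them on the deposited TPM. The share of the deposited TPM that came from mitochondrially encoded genes differed between the groups: its median was 17.0% (range 15.3% to 20.3%) in casted muscle with MOTS-c, 15.7% (13.9% to 17.1%) in casted muscle and 21.8% (20.5% to 22.3%) in uncasted muscle. The summed scaled TPM of the 6 muscle markers was 62184 to 112275 with MOTS-c, 57820 to 89483 in casted and 128398 to 147394 in uncasted muscle. The part of these shares in the shift between scales was not tested. Fewer cells of a type and less RNA per cell cannot be told apart in whole muscle.

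In the outer membrane, the genes of the channel parted. Tomm40l (chromosome 1, 171216011 to 171222514, minus strand) encodes a paralog of the channel protein of the TOM complex, and Tomm40 (chromosome 7, 19701313 to 19715438, minus strand) encodes the channel itself. Tomm40l ranged from 8.64 to 16.1 TPM (median 11.9) in casted muscle with MOTS-c, from 8.22 to 15.1 (11.6) in casted muscle and from 25.4 to 35.2 (27.5) in uncasted muscle. Both casted groups lay wholly below the uncasted one. Its log2 change was -1.26 (SE 0.11, limma adjusted p 1.52e-09) for casted against uncasted, the largest fall among the 37 genes. Tomm40 ranged from 17.8 to 29.4 TPM (median 24.6) in casted muscle with MOTS-c, from 21.5 to 38.4 (27.3) in casted muscle and from 20.8 to 24.2 (22.4) in uncasted muscle. The casted group was higher, with overlap at its low end, and its change was 0.33 (SE 0.10, limma adjusted p 0.00579).

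Of the 3 receptor genes 1 rose. Tomm70a, the receptor that takes up chaperone-bound precursors, ranged from 23.9 to 31.4 TPM (median 24.9) in casted muscle with MOTS-c, from 25.8 to 31.8 (29.2) in casted muscle and from 22.6 to 26.3 (23.5) in uncasted muscle. Every casted library was above the uncasted mean, although the ranges overlapped, and the change was 0.26 (SE 0.06, limma adjusted p 0.000413). Tomm20, which binds presequences, had a change of 0.18 and Tomm22, the central receptor, one of 0.08; neither passed, although Tomm20 did without casted replicate 1 (0.23, limma adjusted p 0.0228). Of the small subunits that stabilise the TOM complex, Tomm7 changed and Tomm5 (-0.06) and Tomm6 (0.14) did not pass.

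Tomm7 ranged from 27.2 to 32.9 TPM (median 29.4) in casted muscle with MOTS-c, from 17.9 to 32.2 (28.4) in casted muscle and from 29.6 to 41.7 (33.2) in uncasted muscle. Casted replicates 5, 6 and 8 lay at 17.9, 19.2 and 17.9 TPM, apart from the other 5 casted libraries at 27.0 to 32.2. The change of Tomm7 was -0.41 (SE 0.11, limma adjusted p 0.00274), but -0.12 (adjusted p 0.212) when the casted group was limited to replicates 1 to 4. Tomm34, a cytosolic co-chaperone that carries the Tomm name, ranged from 7.98 to 11.3 TPM (median 9.01) in casted muscle with MOTS-c, from 8.14 to 10.9 (9.32) in casted muscle and from 7.38 to 9.18 (8.64) in uncasted muscle. Its groups overlapped and its change of 0.11 did not pass.

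**Figure D2:**
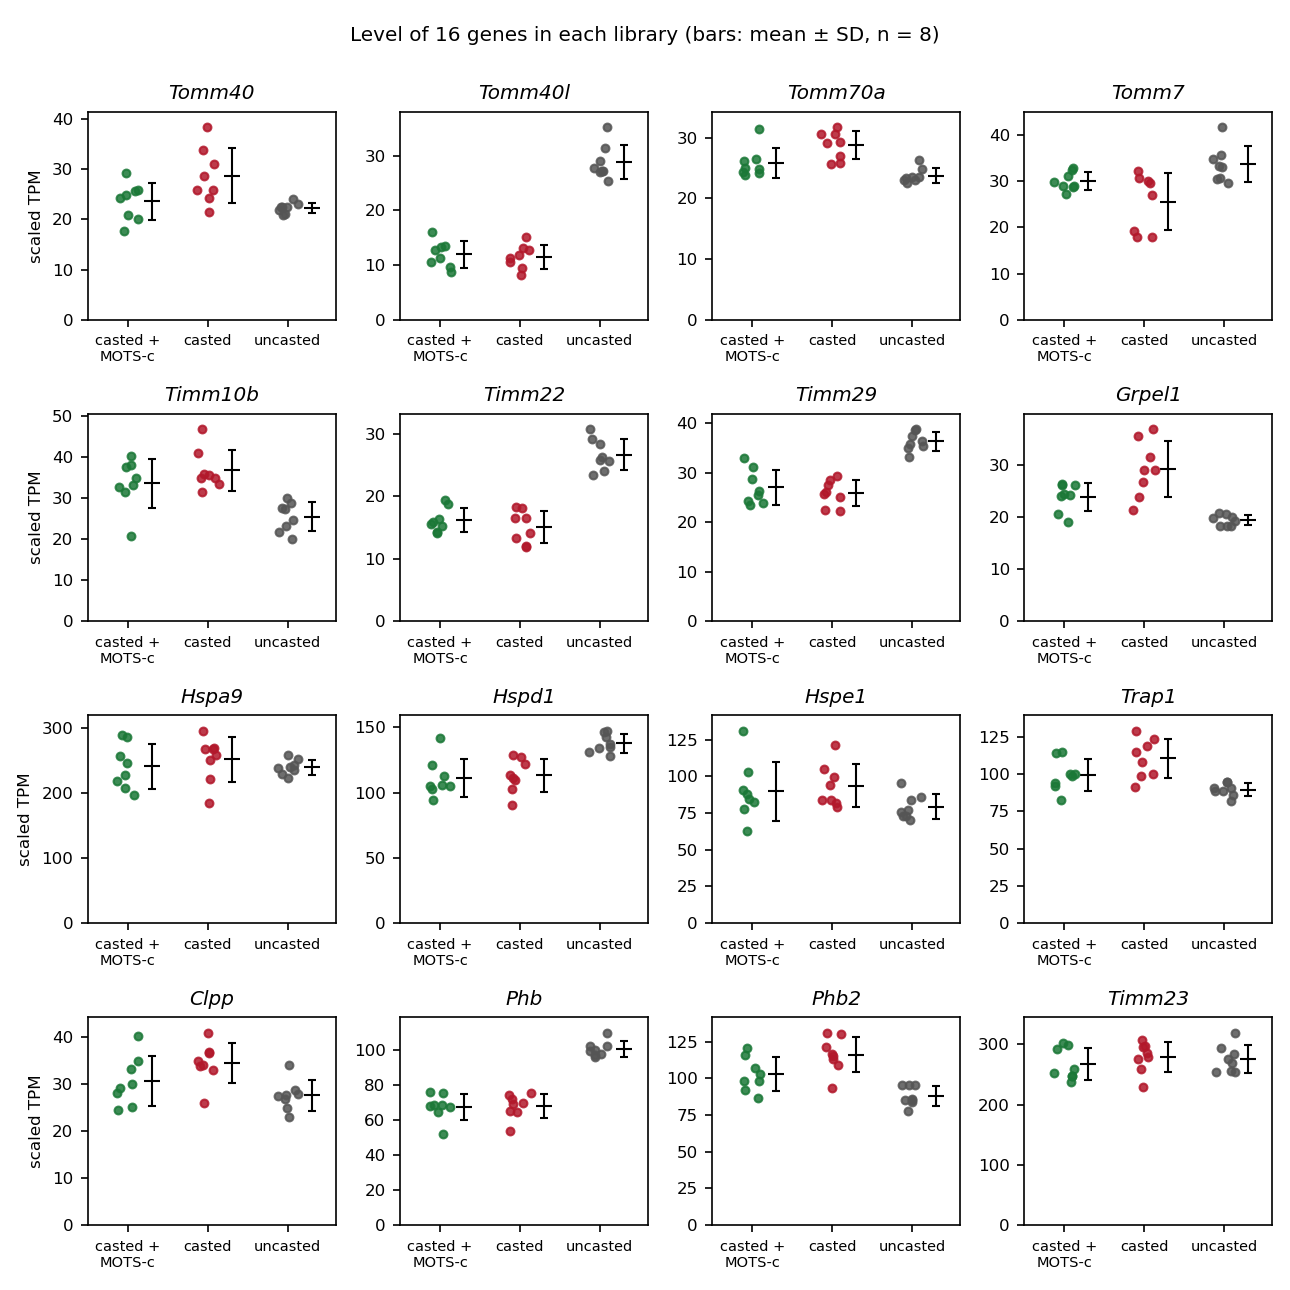
Scaled TPM of 16 genes in each of the 24 libraries, with casted + MOTS-c on the left, casted in the middle and uncasted on the right of each panel; points are libraries and bars are mean ± SD (n = 8). Tomm40l, Timm22, Timm29 and Phb lie lower in both casted groups than in the uncasted group without overlap, and Tomm7 splits the casted libraries into 3 low and 5 higher ones.

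The TIM22 complex inserts carrier proteins into the inner membrane. Of its genes, Timm22 and Timm29 fell, while Timm10b, described below with the small TIM chaperones, rose. Timm22, its channel (chromosome 11, 76406952 to 76416292, plus strand), ranged from 14.1 to 19.4 TPM (median 15.7) in casted muscle with MOTS-c, from 11.9 to 18.3 (15.3) in casted muscle and from 23.4 to 30.8 (26.0) in uncasted muscle. The change was -0.79 (SE 0.09, limma adjusted p 6.18e-08), with no overlap of either casted group with the uncasted one. Timm29, which in human cells is a subunit of the same complex, ranged from 23.5 to 33.0 TPM (median 26.0) in casted muscle with MOTS-c, from 22.3 to 29.3 (26.0) in casted muscle and from 33.2 to 38.9 (36.2) in uncasted muscle. The groups were again apart, and the change was -0.48 (SE 0.07, limma adjusted p 3.48e-06) on the scaled TPM but 0.02 on the deposited TPM.

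The small TIM chaperones split. Timm10b, which in human cells joins the small TIM proteins to TIM22, ranged from 20.7 to 40.3 TPM (median 34.0) in casted muscle with MOTS-c, from 31.6 to 46.9 (35.3) in casted muscle and from 20.2 to 29.98 (25.9) in uncasted muscle. Casted muscle lay wholly above uncasted muscle, with a change of 0.52 (SE 0.11, limma adjusted p 0.000263). Timm10b overlaps a predicted protein-coding gene, Gm45799, on the same strand over 3086 bases; that gene averaged 0.549 TPM in the deposited tables. Timm13 (-0.22, SE 0.07, limma adjusted p 0.0117) and its partner of the Timm8 kind, Timm8a1 (-0.21, SE 0.09, limma adjusted p 0.0416), fell on the scaled TPM. The call for Timm8a1 was lost without casted replicate 1, 3, 5, 6 or 8 or uncasted replicate 5, 6, 7 or 8, with an adjusted p of up to 0.102. Timm9 (0.08), Timm10 (0.12) and Timm8b (0.02) did not pass.

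None of the channel genes of TIM23, the route to the matrix, passed the test on the scaled TPM. Timm23 ranged from 237 to 302 TPM (median 255) in casted muscle with MOTS-c, from 229.6 to 307 (282) in casted muscle and from 254 to 319 (272) in uncasted muscle. The groups overlapped throughout and the change was 0.01 (SE 0.07, limma adjusted p 0.886). Its partner Timm17a had a change of 0.0022 and the paralog Timm17b one of -0.04. On the deposited TPM all 3 were higher, at 0.53 for Timm23 (limma adjusted p 4.10e-07), 0.52 for Timm17a (4.21e-07) and 0.46 for Timm17b (0.000102). The median of all tested genes was 0.39 there. Casted libraries of Timm23 and Timm17a lay wholly above the uncasted ones on that scale. The peripheral subunits Timm50, the receptor on the space between the membranes (-0.20, SE 0.08, limma adjusted p 0.0294), and Timm21, which couples TIM23 to the respiratory chain (-0.25, SE 0.08, limma adjusted p 0.00805), fell on the scaled TPM. On the deposited TPM both passed as higher, at 0.30 (limma adjusted p 0.00249) and 0.25 (0.0242). On the scaled TPM the call for Timm50 was lost without uncasted replicate 8 (adjusted p 0.0756), and also without uncasted replicate 3 (0.0550) or casted replicate 3 (0.0702).

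The import motor pulls precursors into the matrix with cycles of the chaperone Hspa9. Hspa9 itself ranged from 197 to 289 TPM (median 237) in casted muscle with MOTS-c, from 184 to 296 (264) in casted muscle and from 224 to 259 (239) in uncasted muscle, and its change of 0.06 did not pass. Grpel1 (chromosome 5, 36464998 to 36474080, plus strand), its nucleotide exchange factor, ranged from 19.1 to 26.3 TPM (median 24.4) in casted muscle with MOTS-c, from 21.4 to 36.97 (29.1) in casted muscle and from 18.3 to 20.8 (19.6) in uncasted muscle. Every casted library was above every uncasted one, and the change of 0.55 (SE 0.09, limma adjusted p 1.29e-05) was the largest rise among the 37 genes. Timm44, which tethers the motor to the channel, fell by 0.26 on the scaled TPM (SE 0.06, limma adjusted p 0.000619), and its value on the deposited TPM was 0.24.

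The matrix processing peptidase is a dimer of Pmpca and Pmpcb. Pmpca ranged from 66.5 to 81.3 TPM (median 72.2) in casted muscle with MOTS-c, from 70.3 to 80.5 (75.5) in casted muscle and from 80.6 to 91.2 (83.9) in uncasted muscle. Casted libraries lay wholly below uncasted ones on the scaled TPM, by a narrow margin. The changes of Pmpca (-0.17, SE 0.05, limma adjusted p 0.00447) and Pmpcb (-0.28, SE 0.07, limma adjusted p 0.00252) were small. On the deposited TPM both passed as higher, at 0.34 (limma adjusted p 5.03e-05) and 0.23 (0.0306). There the casted libraries lay wholly above the uncasted ones for Pmpca. On the nuclear scale Pmpca also passed as higher (0.13, limma adjusted p 0.0391). The position of Pmpca thus depended on the scale.

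Among the matrix chaperones, Trap1 rose and Hspd1 fell. Trap1, the mitochondrial member of the Hsp90 family, ranged from 82.5 to 115 TPM (median 99.4) in casted muscle with MOTS-c, from 91.6 to 129 (112) in casted muscle and from 82.1 to 95.0 (89.6) in uncasted muscle. All 8 casted libraries were above the uncasted mean, and the change was 0.29 (SE 0.07, limma adjusted p 0.00110). Hspd1, the chaperonin, ranged from 94.2 to 142 TPM (median 105) in casted muscle with MOTS-c, from 90.6 to 129 (112) in casted muscle and from 128 to 147 (136) in uncasted muscle. Casted libraries lay below the uncasted mean with a small overlap. The change of Hspd1 was -0.29 (SE 0.07, limma adjusted p 0.00203) on the scaled TPM. On the deposited TPM it was 0.23 (limma adjusted p 0.0468). Hspe1, its co-chaperonin, ranged from 62.6 to 131 TPM (median 86.0) in casted muscle with MOTS-c, from 79.2 to 121 (88.9) in casted muscle and from 70.1 to 95.7 (76.3) in uncasted muscle, and its change of 0.23 (SE 0.11, limma adjusted p 0.0781) did not pass. It did without uncasted replicate 8 (adjusted p 0.0449), or without replicate 5 (0.04996) or 8 (0.0402) of the MOTS-c group, which shares the estimate of spread.

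The proteases that degrade matrix and inner membrane proteins showed 1 rise and no fall. Clpp, the proteolytic subunit of the matrix protease ClpXP, ranged from 24.6 to 40.4 TPM (median 29.6) in casted muscle with MOTS-c, from 26.0 to 41.0 (34.5) in casted muscle and from 23.04 to 34.2 (27.7) in uncasted muscle. The casted group was higher with overlap, and the change was 0.31 (SE 0.09, limma adjusted p 0.00713). Clpx (0.14), the unfoldase of the same protease, and Lonp1 (0.03), the other matrix protease, did not pass. Yme1l1, the inner membrane protease that faces the space between the membranes, ranged from 36.9 to 42.1 TPM (median 39.1) in casted muscle with MOTS-c, from 32.0 to 49.9 (43.4) in casted muscle and from 32.9 to 44.3 (38.7) in uncasted muscle. Its groups overlapped and its change of 0.16 (limma adjusted p 0.0570) did not pass, but did without casted replicate 4 (0.00261), casted replicate 1 (0.0498) or uncasted replicate 1 (0.0282); Afg3l2, which faces the matrix, had a change of 0.04.

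The prohibitins assemble into rings in the inner membrane from both gene products, and their messages moved apart. Phb (chromosome 11, 95666957 to 95680773, plus strand) ranged from 51.8 to 76.0 TPM (median 68.1) in casted muscle with MOTS-c, from 53.5 to 75.3 (69.4) in casted muscle and from 96.1 to 109.8 (99.7) in uncasted muscle. Both casted groups lay wholly below the uncasted one, and the change was -0.56 (SE 0.07, limma adjusted p 2.77e-07); on the deposited TPM it was -0.05 and did not pass. Phb2 (chromosome 6, 124712336 to 124716950, plus strand) ranged from 86.7 to 120.6 TPM (median 100.7) in casted muscle with MOTS-c, from 93.2 to 131 (116) in casted muscle and from 77.7 to 95.6 (85.7) in uncasted muscle. Casted libraries were above the uncasted mean in 8 of 8 cases, with a change of 0.39 (SE 0.07, limma adjusted p 5.87e-05).

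Values of Phb, Tomm20 and Timm23 are uncertain because processed copies nearly identical to them took up TPM in the deposited tables, and the sources used here do not say how reads were divided between copies. The copies held 36.15% of the level of Phb, 30.52% of that of Tomm20 and 20.83% of that of Timm23. With the copies added to each gene, the change of Phb was -0.51 (SE 0.06, limma adjusted p 1.51e-07), that of Tomm20 was 0.16 and that of Timm23 was -0.0037, and no call among the 37 genes differed.

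Ratios of partners within a library do not depend on how libraries are scaled. The 9 pairs of paralogs or partner subunits were compared in 3 comparisons each, by exact two-sided permutation tests of the difference in mean log2 ratio over all 12870 splits of 8 against 8, adjusted by the Benjamini-Hochberg method over the 27 tests. The smallest p such a test can give is 0.0001554. For casted against uncasted muscle 5 pairs passed.

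The largest shift was that of Tomm40l to Tomm40. The ratio was 0.347 to 0.903 (median 0.475) in casted muscle with MOTS-c, 0.264 to 0.607 (0.365) in casted muscle and 1.21 to 1.46 (1.24) in uncasted muscle. Tomm40l exceeded Tomm40 in no casted library of either group and in every uncasted one. For casted against uncasted the ratio was 0.311-fold, a difference in log2 ratio of -1.69 (exact permutation test, adjusted p 0.000839). The ratio of Phb2 to Phb was 1.22 to 1.71 (median 1.54) in casted muscle with MOTS-c, 1.35 to 2.04 (1.74) in casted muscle and 0.783 to 0.953 (0.878) in uncasted muscle. Phb2 had the higher deposited TPM in every casted library of both groups and Phb in every uncasted one. The difference was 0.97, or 1.96-fold (exact permutation test, adjusted p 0.000839). Copies of Phb, at 36.15% of its level, are left out of these values, so which gene is higher in a library is uncertain. With copies added to each gene, no ratio changed its call.

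The ratio of Hspe1 to Hspd1, the pair with the shared promoter region printed above, was 0.611 to 0.922 (median 0.817) in casted muscle with MOTS-c, 0.735 to 0.997 (0.794) in casted muscle and 0.491 to 0.731 (0.568) in uncasted muscle. The difference was 0.52, or 1.44-fold, for casted against uncasted, without overlap (exact permutation test, adjusted p 0.000839). Timm10b rose relative to Timm10 by 0.41 (exact permutation test, adjusted p 0.00360), a call that was lost with medians in place of means (0.32, adjusted p 0.0663). Timm8a1 fell relative to Timm8b by 0.26 (exact permutation test, adjusted p 0.0189); in both pairs all 8 casted libraries lay on 1 side of the uncasted mean and the ranges overlapped. The pairs Timm17a to Timm17b (0.05), Clpx to Clpp (-0.17), Pmpcb to Pmpca (-0.11) and Tomm20 to Tomm70a (-0.10) did not pass.

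**Figure D3:**
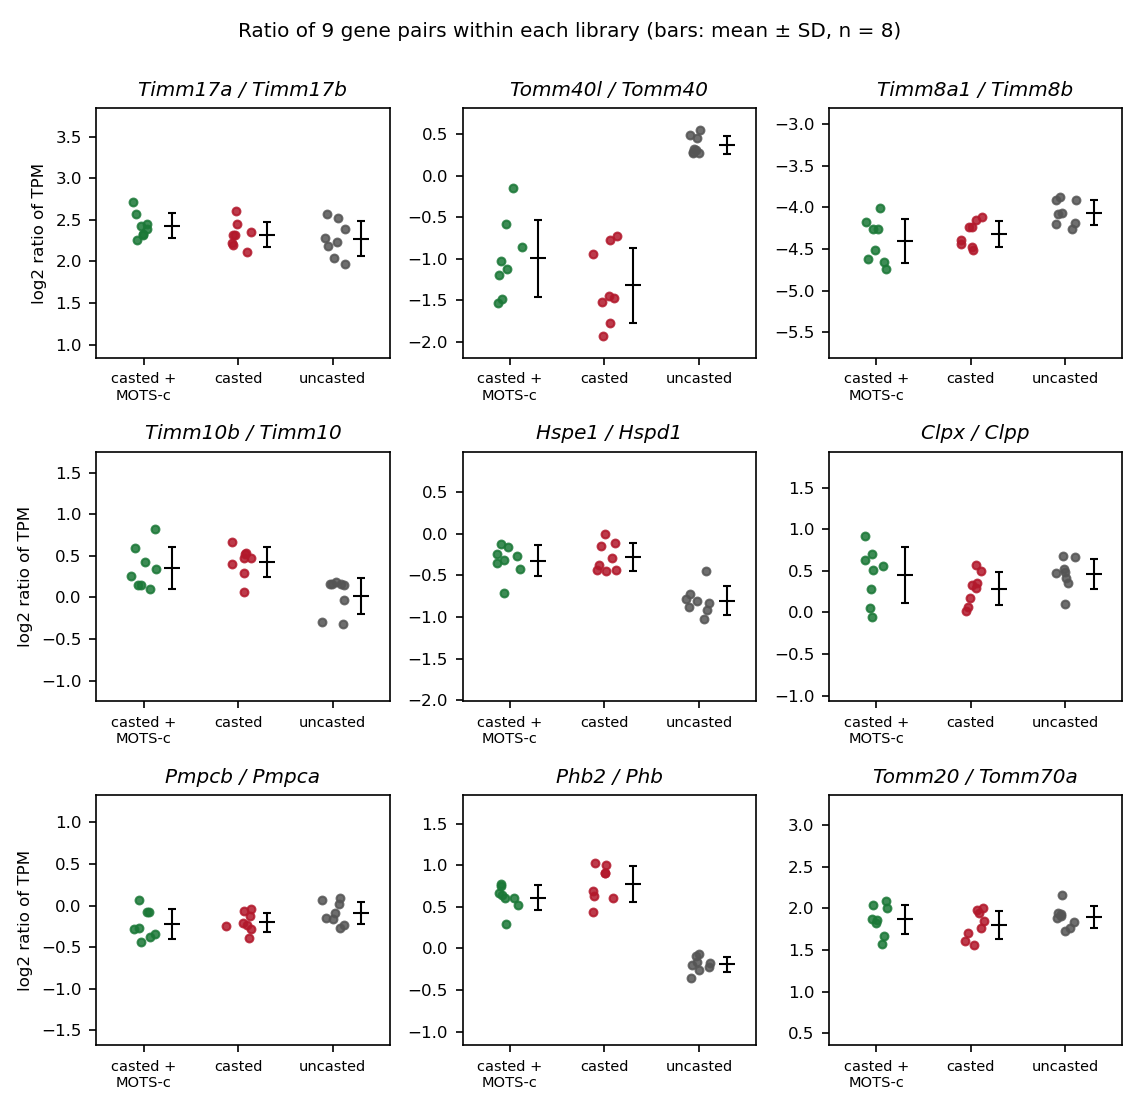
Log2 ratio of deposited TPM within each library for 9 pairs of import and proteostasis genes, with casted + MOTS-c on the left, casted in the middle and uncasted on the right; all panels span 3 log2 units, points are libraries and bars are mean ± SD (n = 8). Tomm40l to Tomm40 lies below and Phb2 to Phb above the uncasted libraries in every library of both casted groups.

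MOTS-c during casting changed none of the 37 genes past the threshold. Across all genes 3 of 14690 passed (0.0204%). Without adjustment, 6 of the 37 genes (16.2%) had a limma p under 0.05, against 13.5% of all genes: Grpel1, Tomm40, Tomm70a, Phb2, Tomm7 and Trap1. The 3 of smallest p were Grpel1 (-0.27, SE 0.09, limma adjusted p 0.225), Tomm40 (-0.27, SE 0.10, limma adjusted p 0.270) and Tomm70a (-0.15, SE 0.06, limma adjusted p 0.278), whose libraries overlapped between casted muscle with MOTS-c and casted muscle as given above. All 8 libraries with MOTS-c were below the casted mean of Grpel1, and 7 of 8 were below those of Tomm40 and Tomm70a. Tomm7 was 0.26 higher with MOTS-c (SE 0.11, limma adjusted p 0.328), with 8 of 8 libraries above the casted mean. Over the 37 genes the values were below 0 for 31 and above 0 for 6, with a median of -0.06, beside a median of -0.0050 over all genes. The genes were measured in the same libraries, so their signs are not separate observations. None of the 9 ratios passed; the values for Tomm40l to Tomm40 and Phb2 to Phb were 0.33 (exact permutation test, adjusted p 0.281) and -0.17 (adjusted p 0.207). A p that misses the threshold does not show that the levels were equal.

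The values of this comparison depended on which casted libraries entered it. The casted group was divided by replicate number, with earlier results known in which replicates 5 to 8 differed from 1 to 4, and the 3 libraries low in Tomm7 were replicates 5, 6 and 8; the counts below describe these libraries and are no test of MOTS-c. With only casted replicates 5 to 8, 1 gene was past the threshold above 0 (Tomm7, 0.55, SE 0.10) and 7 were past it below 0, against 4.62% and 5.70% of all genes. The 7 were Tomm40 (-0.47), Grpel1 (-0.43), Trap1 (-0.29), Lonp1 (-0.28), Afg3l2 (-0.26), Yme1l1 (-0.26) and Tomm70a (-0.24). With only casted replicates 1 to 4, none passed, beside 0.00681% of all genes higher and 0.00681% lower, and the values of Tomm40, Grpel1 and Tomm7 were -0.06, -0.10 and -0.03. Against uncasted muscle, casted replicates 1 to 4 alone had 4 of the 37 genes higher and 10 lower, against 20.7% and 19.8% of all genes. The rises of Tomm40 (0.13), Trap1 (0.15) and Clpp (0.20) and the falls of Timm13 (-0.12), Tomm7 (-0.12) and Timm8a1 (-0.14) did not pass there. With casted replicates 5 to 8 alone, the falls of Timm50 (-0.14), Timm21 (-0.18) and Pmpca (-0.12) did not pass, and Yme1l1 (0.30), Afg3l2 (0.19) and Lonp1 (0.19) were higher than in uncasted muscle. What sets the later-numbered casted libraries apart was not tested.

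Casted muscle with MOTS-c was also set against uncasted muscle, which both comparisons with casting share. Here 3 of the 37 genes were higher and 12 lower, against 26.0% and 24.7% of all genes. No gene lay wholly above the uncasted libraries and 5 lay wholly below (Tomm40l, Timm22, Phb, Timm29 and Timm50), against 7.26% and 8.15%. On the deposited TPM 27 were higher and 2 lower, against 60.0% and 6.94% of all genes, and on the nuclear scale 22 and 3, against 47.9% and 11.0%. The rises on the scaled TPM were Timm10b (0.38, SE 0.11, limma adjusted p 0.00541), Grpel1 (0.28, SE 0.09, limma adjusted p 0.0115) and Phb2 (0.22, SE 0.07, limma adjusted p 0.0151). The largest falls were Tomm40l (-1.22, SE 0.11, limma adjusted p 4.64e-09), Timm22 (-0.69), Phb (-0.57), Timm29 (-0.42) and Timm13 (-0.34), and the other falls were Pmpcb, Timm50, Hspd1, Timm21, Timm8a1, Timm44 and Pmpca. The values of Tomm40 (0.07), Tomm70a (0.11), Clpp (0.14), Trap1 (0.14) and Tomm7 (-0.15) did not pass in this comparison; Trap1 did without replicate 6 of the MOTS-c group (0.18, limma adjusted p 0.0321). Timm17b (-0.18) passed without replicate 8 of that group (adjusted p 0.0484) or uncasted replicate 4 (0.0168). Whether these genes differed between the casted groups is the comparison of the 2 casted groups above, in which none passed. The 5 ratios that passed were those of casting alone, with the same uncasted libraries as controls: Tomm40l to Tomm40 (-1.36), Phb2 to Phb (0.80), Hspe1 to Hspd1 (0.48), Timm8a1 to Timm8b (-0.34) and Timm10b to Timm10 (0.33), with exact permutation adjusted p of 0.000839, 0.000839, 0.00140, 0.0238 and 0.0260 in that order. With medians in place of means the calls of Timm8a1 to Timm8b (-0.31, adjusted p 0.0614) and Timm10b to Timm10 (0.15, adjusted p 0.0629) were lost by the exact permutation test. That of Timm10b to Timm10 was also lost in 7 of 16 fits without 1 library, with an adjusted p of up to 0.0604. Leaving out replicate 5 of the MOTS-c group gave 3 higher and 12 lower.

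Other genes of the same pathways were set beside these for casted against uncasted muscle, where 28.7% of all genes were higher and 27.7% lower on the scaled TPM, and 62.2% and 7.43% on the deposited TPM. Of 20 further genes for import and sorting, 3 were higher and 8 lower on the scaled TPM, with a median of -0.16, but 14 were higher and 1 lower on the deposited TPM, with a median of 0.32. The largest rises were Gfer (0.56, limma adjusted p 1.12e-07), the oxidase of the disulfide relay, and Chchd6 (0.48), a subunit of the MICOS complex that shapes cristae. The largest falls were Timmdc1 (-0.68, limma adjusted p 5.26e-07), an assembly factor of complex I, and Chchd3 (-0.65), another MICOS subunit, with -0.19 and -0.13 on the deposited TPM. Of 14 tested proteostasis partners 5 were higher and 3 lower on the scaled TPM, with a median of 0.12, and 13 and 1 on the deposited TPM, with a median of 0.57. Stoml2 (0.50, limma adjusted p 8.42e-07), a prohibitin-related scaffold, and Htra2 (0.33), a protease between the membranes, rose most. Mipep (-0.70, limma adjusted p 1.80e-09), the peptidase that trims some precursors after the processing peptidase, and Oma1 (-0.27), a stress-activated inner membrane protease, fell on the scaled TPM; on the deposited TPM the value of Mipep was -0.21 and that of Oma1 was 0.22.

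Of 10 tested regulators of mitochondrial stress and biogenesis, Nrf1 (0.40) and Yy1 (0.26) rose and 3 fell on the scaled TPM: Ppargc1a (-0.67), Ddit3 (-0.54) and Atf5 (-0.18). On the deposited TPM 7 of the 10 were higher and none lower (median 0.36), with values of -0.18, -0.07 and 0.31 for these 3. Of 24 cytosolic chaperones 10 were higher and 5 lower on the scaled TPM (median 0.13), and 16 and none on the deposited TPM (median 0.64); Hsp90ab1 (1.10, limma adjusted p 8.80e-09) and Cct2 (0.91) rose most, and Dnaja1 (-0.58) and Dnajb1 (-0.41) fell most on the scaled TPM, with -0.08 and -0.03 on the deposited TPM.

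The respiratory chain, whose subunits this machinery imports, was set beside it by counts and medians. Of 81 tested nuclear-encoded subunits none was higher and 77 were lower (95.1%), with a median of -0.63, beside 35.1% lower and a median of 0.03 for the import and proteostasis genes. The largest falls were Cox7a1 (-2.01) and Atp5k (-1.33). Of 78 mitochondrial ribosomal proteins 11 were higher and 34 lower, with a median of -0.13; Mrps30 (0.74) and Mrpl57 (0.64) rose most and Mrps36 (-1.04) and Mrpl18 (-0.81) fell most. On the deposited TPM 7 respiratory chain genes were higher and 39 lower, and 58 mitochondrial ribosomal genes were higher and 6 lower. The medians there were -0.12 for the respiratory chain, 0.37 for the mitochondrial ribosome and 0.54 for the import and proteostasis genes. Their order is that of the scaled TPM, but the scales differ by 1 factor per library, so the order carries over and is no separate result. In the comparison of casted muscle with MOTS-c against casted muscle, no gene of these lists passed; the medians were 0.09 for the respiratory chain and -0.04 for the mitochondrial ribosome.

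**Figure D4:**
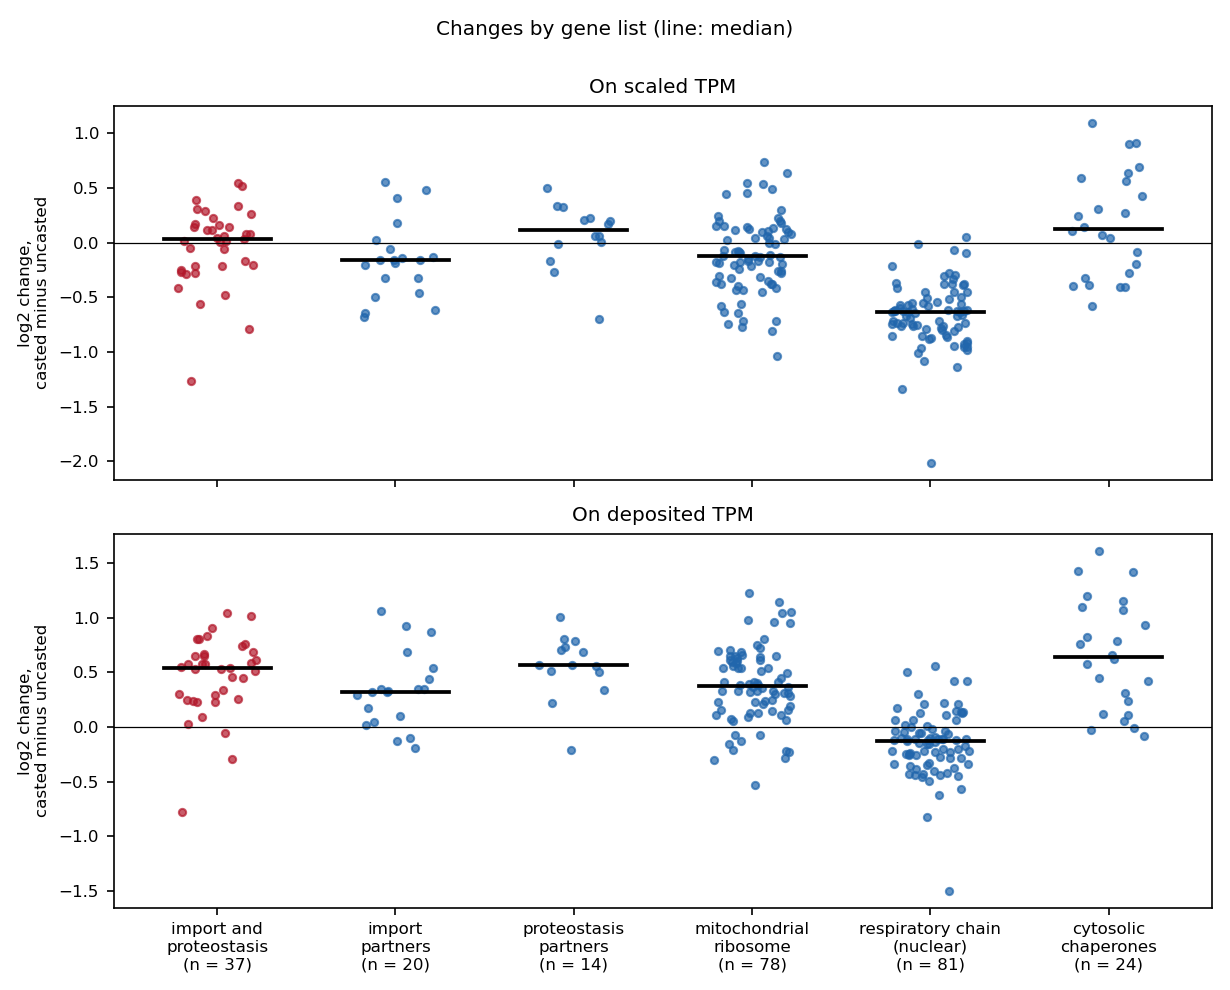
Log2 change for casted minus uncasted of the 37 import and proteostasis genes (left, red) and 5 other lists (blue), on scaled TPM (top) and deposited TPM (bottom); points are genes and lines are medians. The respiratory chain has the lowest median on both scales (-0.63 and -0.12), which differ by 1 factor per library, so the order of lists carries over.

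Markers of other cell types moved beside these genes in casted against uncasted muscle. On the scaled TPM all 6 muscle markers fell (median -0.76), 6 of 9 macrophage markers rose (median 0.48) and all 7 endothelial markers fell (median -0.55). There 3 of 5 fibroblast markers fell (median -0.69). Of the 6 adipocyte markers 1, Fabp4 (-0.31), fell and none passed as higher, while the median of that list was 0.19. On the deposited TPM none of the muscle markers was higher and 4 lower (median -0.24), and all 9 macrophage markers were higher. There 1 endothelial marker was higher and 2 lower (median -0.06), and 2 fibroblast markers were higher and 2 lower (median -0.21). On the same scale 4 adipocyte markers were higher and none lower (median 0.61), with 0.21 for Fabp4. The summed scaled TPM of the macrophage markers was 135 to 324 in casted muscle with MOTS-c, 106 to 256 in casted muscle and 86.5 to 117 in uncasted muscle. That of the adipocyte markers was 304 to 429, 184 to 326 and 265 to 338 in the same groups, and that of the endothelial markers 86.9 to 113, 72.2 to 105 and 103 to 144. That of the fibroblast markers was 337 to 666, 271 to 718 and 489 to 771. Markers of every list were above 0 in each group. Their part in the changes of the import and proteostasis genes was not tested.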

How the data were processed

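Poly-adenylated RNA of 24 gastrocnemius muscles was sequenced, per the labels' protocols; the sources used here do not state strandedness. The authors deposited TPM for 55487 genes in 1 table per library. FastQC, STAR, RSEM and DESeq2 and the genome build GRCm38.p6 are named, without versions, per the submitters' processing notes. Each table sums to a fixed total, so depth is unknown.

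Groups and replicate numbers came from sample titles. Symbols and 1-based coordinates came from GENCODE M21 (GRCm38); 55227 identifiers received a symbol. TPM were scaled by an unweighted trimmed mean of log ratios (30% of ratios and 5% of levels trimmed). Genes of at least 0.5 TPM in at least 8 libraries were tested with limma 3.58.1 (mean-variance trend, R 4.3.3) on log2(scaled TPM + 1), in 1 fit of 3 group means over 24 libraries, without covariates, two-sided. This scale understates changes of low genes. Nothing in the labels says that same-numbered mice were paired.

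Near-copies were transcripts of at least 90% identity over at least 80% of the length (blastn 2.17.0). Full values are given for the 6 largest rises and 6 largest falls with casting, the 3 genes of smallest p with MOTS-c, and the most abundant gene of each role left; Hspe1 and Hspa9, and the Phb2 promoter, were added after their values were seen. Of the other lists, the 2 largest rises and falls are named. The genes, lists and pairs were chosen with earlier results of these data known. Alternatives were other scalings, a pseudocount of 0.1, no filter, 2-group fits, a replicate block, libraries left out, casted replicates 1 to 4 or 5 to 8 alone (a division by number that earlier results prompted), medians in place of means for ratios, and, chosen after seeing the data, near-copies added and group weights.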

Additional observations from a re-analysis of the deposited data

Results flagged for a closer look

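In 138 sets of 8 libraries (1 gene or ratio in 1 group), the highest or lowest library was compared with its neighbour, as a share of the group's range; 9 values, from 5 libraries, stood apart by more than Dixon's critical value for 8 samples. Chance alone flags about 1 set in 20 at this value where sets are independent. These sets share libraries, and the ratios share genes with the single values, so that rate cannot judge the total of 9. Of the 9, 5 came from uncasted replicate 8. That library was highest of its group for Timm50 (40.2 TPM), Phb (109.8 TPM) and Timm13 (83.8 TPM), and for the ratios of Hspe1 to Hspd1 (0.731) and Tomm20 to Tomm70a (4.47). Without it, the change of Timm50 for casted against uncasted was -0.14 (limma adjusted p 0.0756).

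The other flags were single values. Replicate 1 of the casted group with MOTS-c was lowest for Phb (51.8 TPM), replicate 5 was lowest for Timm10b (20.7 TPM) and replicate 6 was highest for Tomm70a (31.4 TPM). Uncasted replicate 5 was lowest for Tomm34 (7.38 TPM).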

How the results depend on the processing

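Scaling turned the sign of 12 of 37 values on the deposited TPM and 10 on the nuclear scale for casted against uncasted. For MOTS-c with casting against uncasted it turned 17 and 10. No rise turned, but both scales place casted muscle higher than the scaled TPM does, so a rise could not turn. For casted against uncasted the counts of higher and lower genes were 32 and 2 on the deposited TPM, against 62.2% and 7.43% of all genes. They were 24 and 4 on TPM scaled to nuclear protein-coding genes, against 49.4% and 13.0%. For MOTS-c with casting against uncasted they were 27 and 2, against 60.0% and 6.94%, and 22 and 3, against 47.9% and 11.0%. With casted replicates 1 to 4 alone, 4 genes were higher for casted against uncasted, against 20.7% of all genes. With casted replicates 5 to 8 alone, 1 was higher and 7 lower with MOTS-c against casted, against 4.62% and 5.70% of all genes. Earlier results prompted this division, so these counts describe the libraries and are no test of MOTS-c. Medians in place of means lost the call of Timm8a1 to Timm8b with MOTS-c against uncasted (-0.31, exact permutation adjusted p 0.0614), and of Timm10b to Timm10 for casted against uncasted (0.32, 0.0663) and MOTS-c against uncasted (0.15, 0.0629). The last ratio also lost its call in 7 of 16 fits without 1 library (0.27 to 0.37). The cause of these changes was not tested.

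Values that turned above 0 for casted against uncasted were, on the deposited TPM, Timm44 0.24, Timm50 0.30, Timm13 0.29, Timm21 0.25, Hspd1 0.23, Pmpca 0.34, Tomm7 0.087, Pmpcb 0.23, Timm17b 0.46, Timm8a1 0.25, Timm29 0.023 and Tomm5 0.45. On the nuclear scale they were Timm44 0.034, Timm50 0.093, Timm13 0.082, Timm21 0.046, Hspd1 0.015, Pmpca 0.13, Pmpcb 0.023, Timm17b 0.25, Timm8a1 0.059 and Tomm5 0.24.

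For MOTS-c with casting against uncasted, those on the deposited TPM were Timm44 0.21, Timm50 0.10, Timm23 0.39, Timm13 0.094, Hspa9 0.43, Afg3l2 0.36, Timm21 0.13, Hspd1 0.12, Pmpca 0.24, Tomm7 0.27, Pmpcb 0.11, Timm17b 0.24, Lonp1 0.33, Timm8a1 0.13, Timm29 0.0045, Timm17a 0.40 and Tomm5 0.30. On the nuclear scale they were Timm44 0.053, Timm23 0.23, Hspa9 0.27, Afg3l2 0.20, Pmpca 0.080, Tomm7 0.12, Timm17b 0.086, Lonp1 0.18, Timm17a 0.24 and Tomm5 0.14. For MOTS-c against casted, Timm44 (-0.034), Tomm40l (-0.028), Timm8b (-0.047) and Timm29 (-0.019) turned below 0 on the deposited TPM, and none of the 37 passed there.

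Leaving out 1 library kept 7 to 9 genes higher and 11 to 13 lower for casted against uncasted, 3 to 4 and 12 to 13 for MOTS-c against uncasted, and 0 for MOTS-c against casted; single calls that moved were those of Hspe1, Timm50, Timm8a1, Tomm20, Yme1l1, Timm17b and Trap1. After each gene's group mean was subtracted, same-numbered libraries of different groups correlated at -0.24 to 0.37. These values cannot show whether same-numbered mice shared more than a number, and the labels name no pairing. The replicate block moved 1 call among the 37 genes (Timm17b with MOTS-c against uncasted, -0.18, limma adjusted p 0.0404) and the ratio of Timm10b to Timm10 with MOTS-c against uncasted (0.33, exact permutation adjusted p 0.0844). Scaling by the median of gene ratios turned no sign. For casted against uncasted, Yme1l1 passed under it (limma adjusted p 0.0470) and with group weights (0.0470), and Hspe1 passed in the 2-group fit (0.0319). Timm8a1 did not pass under that scaling (limma adjusted p 0.0519) or without the filter (0.0712).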
